A study of Rattus norvegicus with 2 samples.

Results

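The genes described here are 48 genes of DNA replication and of the repair and checkpoint systems that work beside it, measured in rat liver after a choline-deficient diet. They were listed by name for their function, with earlier results of these data known. Of the 48, 47 were the gene name of at least 1 probe on the array (63 probes in all) and 1, Gins1, was not. The array carried 33719 gene names in total. Of the 47, 36 entered the test, as did 18198 genes over the whole array, because a probe of theirs was well above background in CDD on each array or in the control on each array. The other 11 had probes that did not reach that level.

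The rats were of the strain that the labels spell Wister, were 7 weeks old, and received either a choline-deficient diet (CDD) or a control diet over 10 days. The labels give no genotype or other treatment. Total liver RNA of both diets was hybridised together to each of 2 two-colour oligonucleotide arrays. Array 1 had CDD in the red dye Cy5 and the control in the green dye Cy3, and array 2 had the reverse. The labels give 4 CDD rats, without stating which of them each array held, whether RNA was pooled, or whether the same extracts were used in both dyes. The limma p-values below thus take in no spread beyond that between these 2 arrays, pooled largely over genes, and it may be technical.

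Before a cell copies its DNA, the origin recognition complex, Cdc6 and Cdt1 load a ring of Mcm proteins onto each origin. Cdc45 and the GINS complex then turn that ring into the moving helicase, and polymerases, the Pcna clamp and its Rfc loader follow it. Most of these genes are transcribed by E2F factors as a cell enters the cycle, and in adult liver, where few hepatocytes divide, they are known for low expression that climbs when hepatocytes regenerate.

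Because many of these genes are known E2F targets, their promoters were read first. RefSeq promoters of assembly GRCr8, from 250 bases before to 50 bases after the start of the gene, were matched by symbol for 43 of the 48 genes, which have 46 starts. An E2F-type core (the letters TTCCCGC, the close variant TTGGCGC, the variant TTGCCGC, or the variant TTCGCGC, on either strand, overlapping matches counted separately) was present in 33 of these 46 promoters (71.7%), against 2549 of 21851 promoters of protein-coding genes (11.7%). By what the arrays showed, the share was 15 of 21 promoters (71.4%) of genes that rose, 8 of 12 (66.7%) of genes tested and not past the threshold, and 9 of 12 (75.0%) of genes not tested. The remaining promoter, of Mcm10, the only gene that fell, also held a core. The following 6 stretches of 150 bases, each ending just before the start of the gene, show what these promoters look like, written 5′ to 3′ in the direction of transcription with matches in capitals. Mcm6 (chr13:42404353-42404502 (minus strand)), Chaf1a (chr9:961075-961224 (plus strand)) and Fen1 (chr1:216274397-216274546 (minus strand)) rose and hold matches. Cdc45 (chr11:95690028-95690177 (plus strand)) rose and holds none of the 4 cores, although it holds the letters TTGGCGG, which differ from TTGGCGC in the last letter and were not searched. Mcm7 (chr12:22163179-22163328 (minus strand)) and Tipin (chr8:73675941-73676090 (plus strand)) hold matches and did not pass the test.
Mcm6 promoter: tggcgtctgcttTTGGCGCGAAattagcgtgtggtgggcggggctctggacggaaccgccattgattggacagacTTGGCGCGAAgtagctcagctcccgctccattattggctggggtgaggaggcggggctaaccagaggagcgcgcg
Chaf1a promoter: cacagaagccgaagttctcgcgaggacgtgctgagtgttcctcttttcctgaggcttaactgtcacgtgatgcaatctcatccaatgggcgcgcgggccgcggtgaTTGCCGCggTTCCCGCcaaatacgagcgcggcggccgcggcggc
Fen1 promoter: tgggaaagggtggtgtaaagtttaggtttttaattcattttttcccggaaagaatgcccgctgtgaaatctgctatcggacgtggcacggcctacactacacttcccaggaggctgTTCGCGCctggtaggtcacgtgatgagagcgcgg
Cdc45 promoter: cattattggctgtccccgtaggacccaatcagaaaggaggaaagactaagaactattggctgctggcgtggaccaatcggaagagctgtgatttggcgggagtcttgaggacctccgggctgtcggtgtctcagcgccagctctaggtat
Mcm7 promoter: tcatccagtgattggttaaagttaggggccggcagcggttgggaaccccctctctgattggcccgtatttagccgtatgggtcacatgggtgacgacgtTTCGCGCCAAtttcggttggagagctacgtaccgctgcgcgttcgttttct
Tipin promoter: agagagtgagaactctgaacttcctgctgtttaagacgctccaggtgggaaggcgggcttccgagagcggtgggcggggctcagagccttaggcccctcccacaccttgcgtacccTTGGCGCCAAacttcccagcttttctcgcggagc

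In Mcm6 and Mcm7, and in Tipin, a capital run longer than the core marks overlapping matches on both strands. The matches were close to the start of the gene, with 32 of the 46 promoters holding a core that begins between 100 bases before and 50 bases after the start, against 1549 of 21851. The core was also in 18 of 32 promoters (56.2%) of a list of other replication genes and in 6 of 20 (30.0%) of cyclin and Cdk genes. Among 26 promoters of mitosis genes, 3 held the E2F-type core (11.5%) and 19 held the letters TTTGAA of a cell cycle homology region, on either strand (73.1%), which were present in 4 of the 46 replication and repair promoters (8.70%) and in 17.1% of all. The CCAAT box, on either strand, was present in 26 of the 46 (56.5%) and in 38.0% of all. The median GC content was 59.7% in the replication and repair promoters, 55.0% in all, and 60.0% in 35 promoters of excision, mismatch and end-joining repair genes, of which 10 held the core (28.6%). A match is a description of letters and does not show that a factor was bound.

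**Figure D1:**
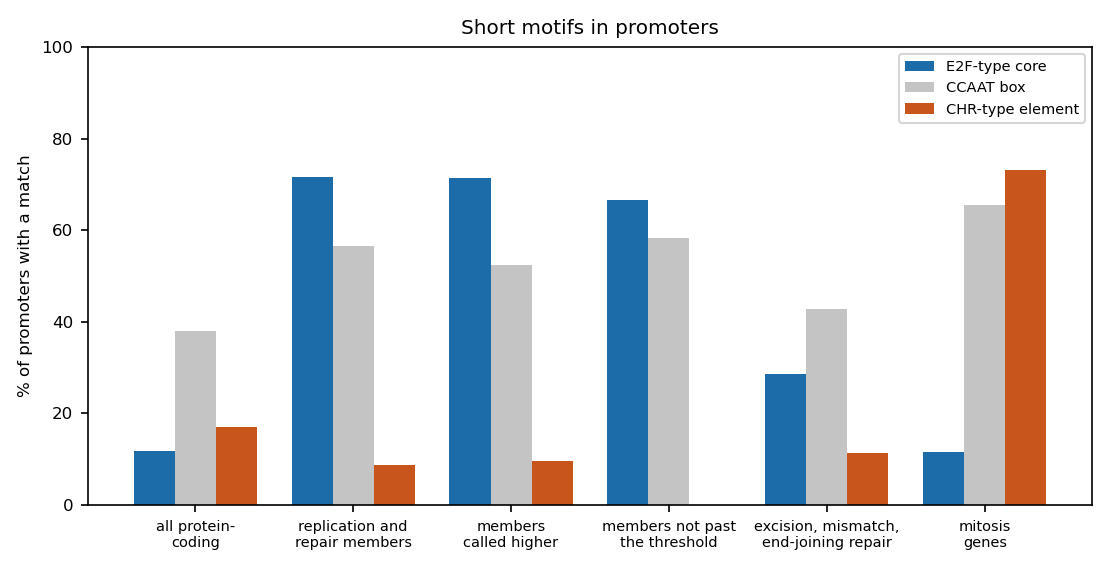
Share of promoters (y axis, percent) that hold an E2F-type core, a CCAAT box or a CHR-type element (the letters TTTGAA) in each gene set (x axis), read from RefSeq GRCr8 promoters of 300 bases, where members are the replication and repair genes. The E2F-type core was in 71.7% of the replication and repair promoters and 11.5% of the mitosis promoters, and the CHR-type element in 8.70% and 73.1%.

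Of the 36 genes tested, 21 were higher in CDD liver (58.3%) and 1 was lower in limma's test at a Benjamini-Hochberg adjusted p under 0.05 over all 18198 genes. Over all genes, 4.37% were called higher and 4.25% lower. Rrm2, 1 of the 21, passed the filter only through CDD. The largest increases were in Chaf1b (2.11-fold), a subunit of the factor that deposits histones on new DNA, Fen1 (1.93-fold), the nuclease that trims flaps from lagging strand fragments, Gmnn (1.77-fold), which blocks a second loading of the helicase, and Mcm3 (1.65-fold), a subunit of the helicase. Increases among the 21 were modest, from 1.23-fold to 2.11-fold, and 7 of 36 genes (19.4%) were at least 1.5-fold higher on average, against 1.06% of all genes. The median log2 ratio of the 36 genes was 0.37 on array 1 and 0.31 on array 2, and 0.31 for the mean of the arrays, where the median of all genes was 0.00. These calls depend on the normalization and the error model. Run on the log ratio of the authors' deposited table, limma called 0 of the 36 higher (0% of all genes), or 24 at an unadjusted p under 0.05 (5.71% of all genes). The same ratio with an intensity trend gave 22 higher (6.30% of all genes). When arrays were centred on their medians and loess was not used, it called 0 (0% of all genes), also at an unadjusted p under 0.05 (0.0989% of all genes). All 21 genes kept a positive mean in each of these settings, but with median centring 8 of them had a negative ratio on array 2 (for example Dut, 1.54 on array 1 and -0.51 on array 2).

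**Figure D2:**
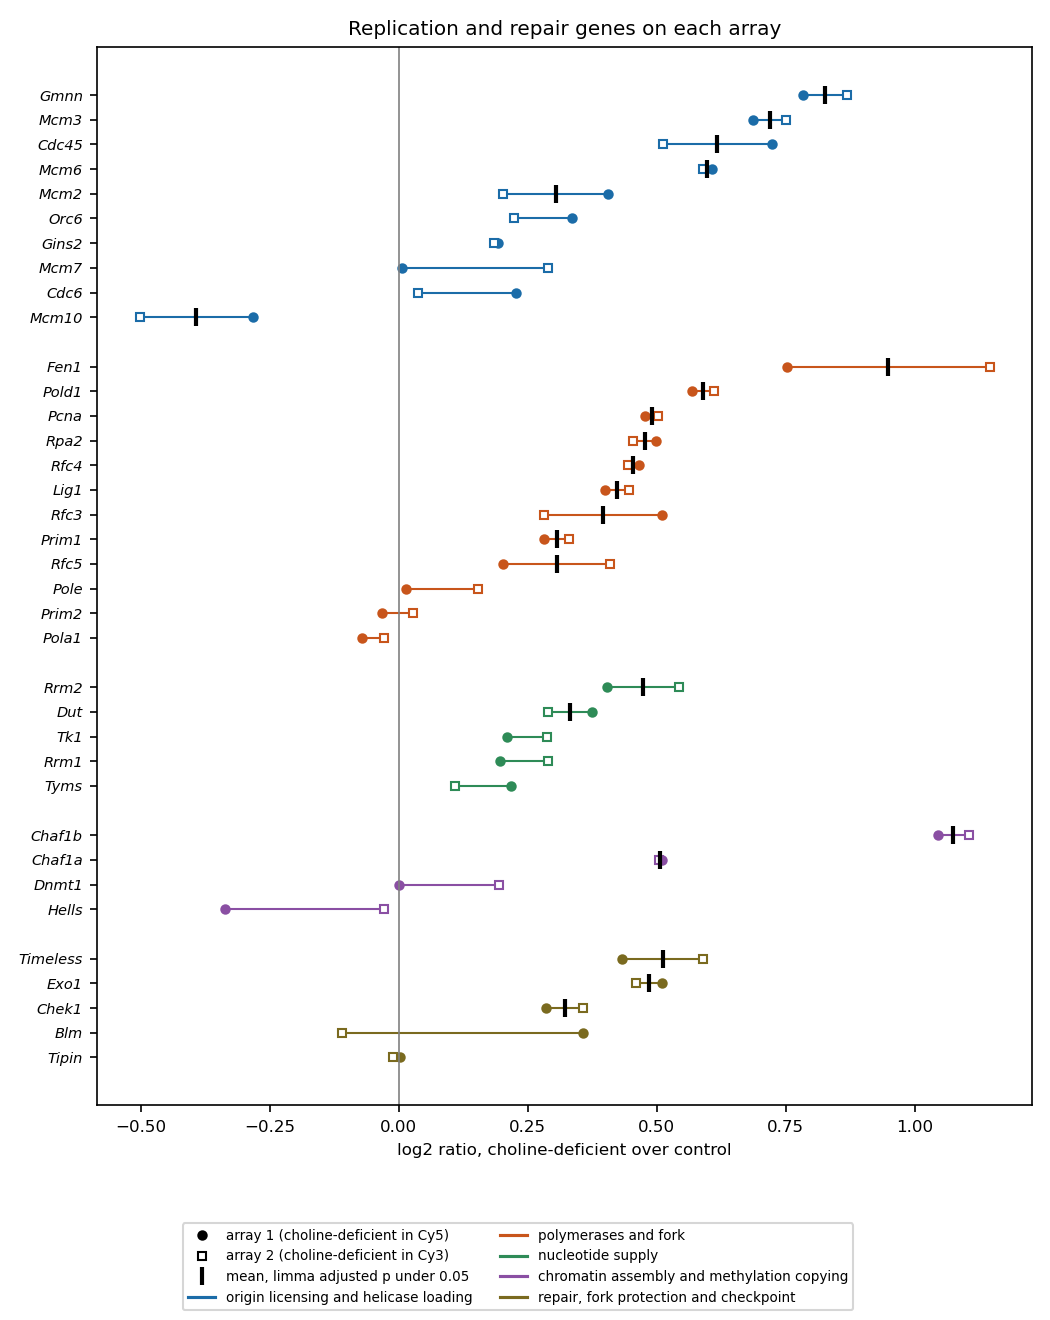
Log2 ratio of CDD over control (x axis) of each of the 36 tested genes (y axis, grouped and coloured by role), with a filled circle for array 1, an open square for array 2 and a line joining them. A black bar at the mean marks the genes past a limma adjusted p of 0.05, of which 21 lie right of 0 on both arrays and 1, Mcm10, lies left of 0 on both.

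Agreement between the arrays was also counted with no test, on the loess-normalized ratios. A positive log2 ratio on both arrays was found in 30 of 36 genes (83.3%), against 29.4% of all genes, and the same sign on both in 33 (91.7%), against 56.4%. The 30 include 4 genes (Cdc6, Gins2, Rrm2 and Tk1) that passed the filter only through CDD, so their direction is no independent evidence. These 4 are also in the counts below of positive ratios with median centring and in the authors' deposited table. With median centring the 18198 genes tested lay off 0 (their medians were 0.65 for array 1 and -0.41 for array 2), and 20 of the 36 were positive on both arrays (55.6%), against 6.14% of all genes. With loess, the median SD between the arrays was 0.06 in these genes and 0.10 over all genes. At least 2-fold on both arrays was reached by 1 gene, Chaf1b (2.78%, against 0.192% of all genes). The authors' deposited table gives each log ratio a p-value from an error model within 1 array, and by its values 13 of 36 genes (36.1%) were higher on both arrays with a p under 0.01 on each, against 1.64% of all genes. None was lower on both with such a p in the authors' deposited table, against 1.20% of all genes, and its log ratio was positive on both arrays for 30 of 36 genes (83.3%), against 27.7%. The 13 genes of the authors' deposited table were Chaf1a, Chaf1b, Chek1, Exo1, Fen1, Gmnn, Mcm3, Mcm6, Pold1, Rfc4, Rpa2, Rrm2 and Timeless. Among the 13, Rrm2 passed the filter only through CDD.

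**Figure D3:**
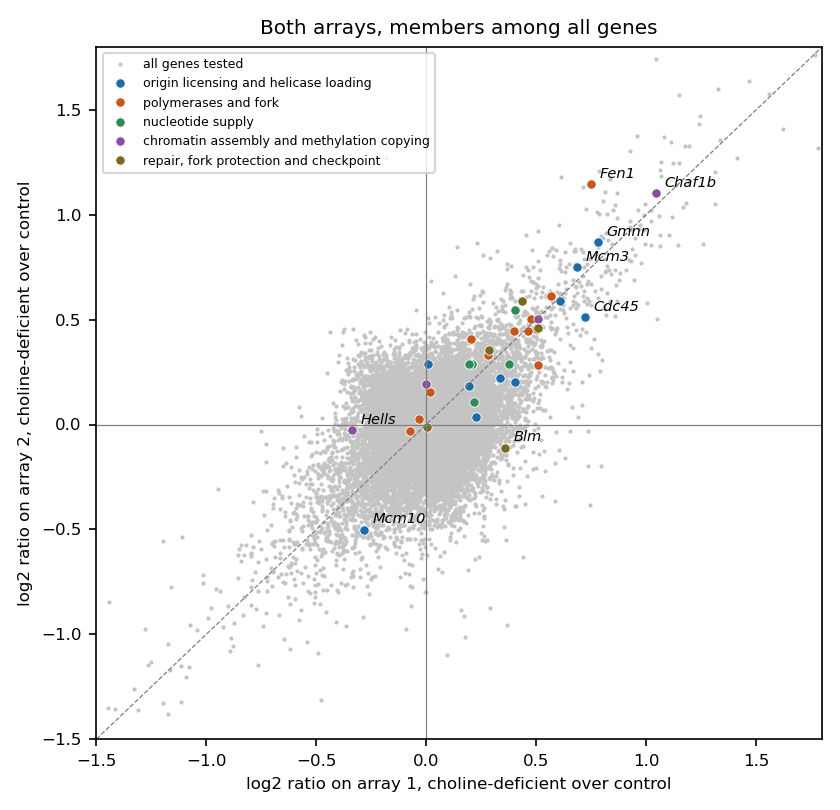
Log2 ratio of CDD over control on array 1 (x axis) and on array 2 (y axis) for all genes tested (grey) and the 36 replication and repair genes (coloured by role), with a dashed line where both are equal. Genes beyond the axes are not drawn, and 30 of the 36 lie in the quadrant where both ratios are positive.

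A dye swap also lets the diets be compared in one colour. Net signals (spot signal minus local background, in scanner units, without normalization) of CDD over control had a median ratio over all genes of 0.939 in Cy5 and 1.22 in Cy3. For the 36 genes, the median ratios were 1.34 in Cy5 and 1.60 in Cy3. Above the all-gene median in both colours were 30 of the 36 (83.3%), against 30.2% of all genes, and these 30 held each of the 21 genes that rose. The 30, and the counts above 1 that follow, include Cdc6, Gins2, Rrm2 and Tk1, which passed the filter only through CDD. The direction of those genes is no independent evidence. A ratio above 1 in Cy5 was found in 32 of the 36 and in Cy3 in 33. In Cy3 the median of all genes was itself above 1 (1.22), and the share of all genes above 1 was not counted. Each such ratio sets the arrays against each other, so it also carries their difference in overall brightness.

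**Figure D4:**
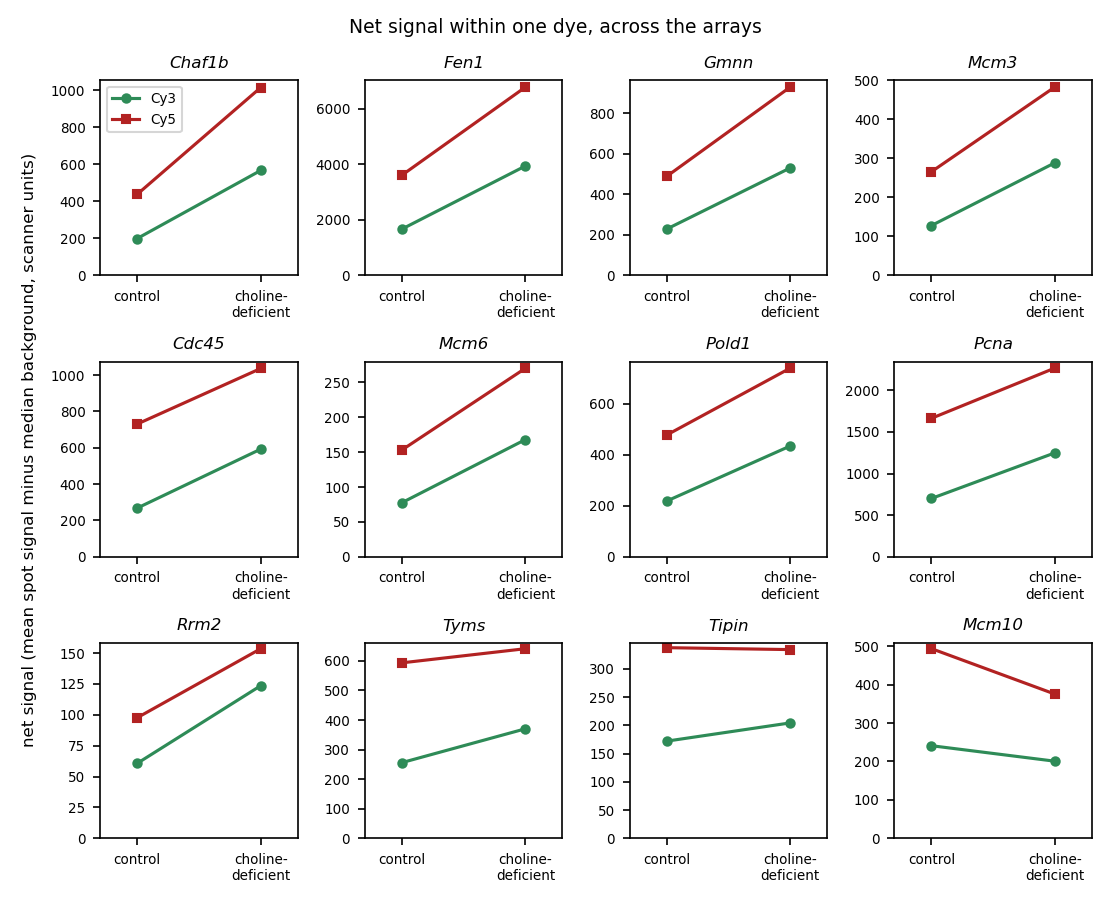
Net signal (y axis, linear scanner units from 0, a scale of its own in each panel) of the control and CDD for 12 of the tested genes, with a line joining the values of one dye, which come from different arrays and are not normalized. In 10 panels both lines go up from control to CDD, in Mcm10 both go down, and in Tipin they differ.

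The group of origin licensing and helicase loading also takes in Cdc45, Gins2 and Mcm10, which act after loading, and Gmnn, which blocks it. Of the 16 genes in the group, 10 were tested, of which 5 rose and 1 fell. The median log2 ratio was 0.29 (0.37 on array 1 and 0.26 on array 2). Gmnn encodes geminin, which holds Cdt1 inactive after an origin has fired. On array 1 its net signal was 930 for CDD (Cy5) and 228 for the control (Cy3), and on array 2 it was 531 for CDD (Cy3) and 489 for the control (Cy5). In each dye CDD was brighter, and the log2 ratio was 0.78 on array 1 and 0.87 on array 2, a mean of 0.83 ± 0.06 (SD, n = 2 arrays; limma adjusted p = 2.36e-09). Mcm3 had CDD signals of 483 and 288 and control signals of 127 and 265, on array 1 and array 2 in that order. Its log2 ratio was 0.69 and 0.75, a mean of 0.72 ± 0.04 (limma adjusted p = 1.19e-07). A second probe for Mcm3 was too dim to be kept. The array files place the kept Mcm3 probe on chrX_random of build rn4, while the Mcm3 promoter in GRCr8 is on chr9.

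Cdc45, which joins the Mcm ring to make the active helicase, had CDD signals of 1037 on array 1 and 593 on array 2 and control signals of 268 and 731. The Cy3 pair differed more than the Cy5 pair, and the log2 ratio was 0.72 on array 1 and 0.51 on array 2 (0.62 ± 0.15, 1.53-fold, limma adjusted p = 4.86e-06). Mcm6 gave CDD signals of 270 and 168 against control signals of 77.6 and 153. Both arrays showed nearly the same log2 ratio, 0.61 and 0.59 (0.60 ± 0.01, 1.51-fold, limma adjusted p = 8.10e-06). Mcm2, the helicase subunit that also binds histones, was close to the threshold, with log2 ratios of 0.41 and 0.20 (0.30 ± 0.14, limma adjusted p = 0.0473). Its other kept probe had a mean of 0.23.

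Not every subunit of the ring was called. Mcm7 had log2 ratios of 0.01 and 0.29 (0.15 ± 0.20, limma adjusted p = 0.558), so its arrays differed by more than the mean. Probes for Mcm4 and Mcm5 were not well above background in the way the filter asked. Orc6, a subunit of the origin recognition complex, had a mean of 0.28 ± 0.08 (limma adjusted p = 0.0757), just outside the threshold. The means of Gins2, of the GINS complex, and Cdc6, the loader, were 0.19 ± 0.01 and 0.13 ± 0.13, and limma's adjusted p was 0.345 and 0.628. Both passed the filter only through CDD, with the control well above background on 1 array.

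Mcm10, which helps start the helicase and tethers polymerase alpha, was the single gene that fell. Its CDD signals were 375 on array 1 and 201 on array 2, and its control signals 241 and 494. The log2 ratio was -0.28 on array 1 and -0.50 on array 2, a mean of -0.39 ± 0.15 (limma adjusted p = 0.00572). In one colour the ratio of CDD to control was 0.760 in Cy5 and 0.833 in Cy3, both under the all-gene medians. This call rests on 1 probe, since the other Mcm10 probe was not kept, and it was lost with the deposited log ratio without a trend and with median centring.

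The polymerases and fork proteins held the highest share of calls of the 5 groups of roles, with 9 of 12 tested genes higher, none lower and a median log2 ratio of 0.41 (0.43 on both arrays). That rank was not kept with a smaller offset of 16 in the background correction. There 7 of the 12 were called higher, beside 3 of 5 repair, fork protection and checkpoint genes. Fen1 was among the brightest of these genes, with CDD signals of 6775 and 3936 and control signals of 1664 and 3604. Its log2 ratio was 0.75 on array 1 and 1.14 on array 2 (0.95 ± 0.28, limma adjusted p = 6.48e-11), the widest gap between the arrays among the 21 genes. Another Fen1 probe was too dim to be kept, so this call rests on 1 probe. Pold1, the catalytic subunit of polymerase delta, had CDD signals of 739 and 434 and control signals of 218 and 477. The arrays gave 0.57 and 0.61 (0.59 ± 0.03, limma adjusted p = 1.10e-05).

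Pcna, the clamp that holds polymerases on DNA, had CDD signals of 2268 and 1249 and control signals of 701 and 1663. Its log2 ratio was 0.48 and 0.50 (0.49 ± 0.02, 1.40-fold, limma adjusted p = 0.000284), and a second Pcna probe had a mean of 0.42. Of its loader, the Rfc complex, only 3 subunits were on the list of genes described here, and each of these 3 rose. The complex as a whole is not covered, since values of its other subunits are not given here. Rfc4 had a mean of 0.45 ± 0.01 (limma adjusted p = 0.000859), Rfc3 of 0.40 ± 0.16 (0.00522) and Rfc5 of 0.31 ± 0.15 (0.0460). The Rfc5 call was lost with a normexp offset of 16 and with no filter on dim probes. Rpa2, a subunit of the protein that coats single-stranded DNA, had a mean of 0.48 ± 0.03 (limma adjusted p = 0.000445). Lig1, the ligase that seals lagging strand fragments, had a mean of 0.42 ± 0.03 (limma adjusted p = 0.00231).

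The enzyme that primes synthesis was split. Prim1, its catalytic subunit, had log2 ratios of 0.28 and 0.33 (0.31 ± 0.03, limma adjusted p = 0.0440) and a second probe at 0.34. Its partner Prim2 had log2 ratios of -0.03 and 0.03, a mean of 0.00 ± 0.04 (limma adjusted p = 0.999). Pola1, the polymerase alpha that extends the primer, had a mean of -0.05 ± 0.03 (limma adjusted p = 0.926), and Pole, the leading strand polymerase, 0.08 ± 0.10 (limma adjusted p = 0.833). Pola1 passed the filter only through the control, with CDD well above background on 1 array, and its other probe was not kept. The difference between these genes and the 9 that rose was not tested.

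Some of the 60-base probes span more genomic bases than their own length, as a probe across an intron would, and 5 of these are shown, from genes that rose and genes near 0. Their match to spliced RNA was not checked. They are given 5′ to 3′ as on the array, with their span in rn4, the rat build named in the array files. Pold1 (chr1:95010792-95011164 (minus strand)), Rfc5 (chr12:40400273-40401311 (plus strand)) and the second Pcna probe (chr3:120011217-120011421 (minus strand)) are from genes that rose. Prim2 (chr9:32234033-32264072 (minus strand)) and Tipin (chr8:68491783-68492071 (plus strand)) are from genes near 0.
Pold1 probe: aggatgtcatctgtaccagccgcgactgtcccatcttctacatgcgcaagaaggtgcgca
Rfc5 probe: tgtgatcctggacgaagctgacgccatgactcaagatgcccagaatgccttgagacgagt
Pcna probe: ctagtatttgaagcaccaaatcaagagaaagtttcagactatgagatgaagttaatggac
Prim2 probe: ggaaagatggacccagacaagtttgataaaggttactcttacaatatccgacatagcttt
Tipin probe: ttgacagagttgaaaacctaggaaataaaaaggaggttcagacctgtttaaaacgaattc

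In all, 22 of the 63 probes span more than 60 genomic bases, 1 of them (Chek1) by a single base. Of the 5 shown, the Pold1 probe had a mean log2 ratio of 0.59, the Rfc5 probe 0.31 and the Pcna probe 0.42, while the Prim2 and Tipin probes were both at 0.00.

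Nucleotide supply genes make the deoxynucleotides that polymerases use. All 5 were tested and had a positive ratio on both arrays, 2 rose, and the median log2 ratio was 0.25 (0.22 on array 1 and 0.29 on array 2). Rrm2, the regulatory subunit of ribonucleotide reductase, had CDD signals of 154 and 124 and control signals of 60.7 and 97.6. Its log2 ratios were 0.40 and 0.54 (0.47 ± 0.10, 1.39-fold, limma adjusted p = 0.000508), although the control was well above background on 1 array, and the other Rrm2 probe kept had a mean of 0.05. Dut, the dUTPase that keeps uracil out of DNA, was bright, with CDD signals of 6486 and 3326 and control signals of 2076 and 5596. Its log2 ratios were 0.38 and 0.29 (0.33 ± 0.06, 1.26-fold, limma adjusted p = 0.0238), against 0.12 for its other probe. With the mean of a gene's kept probes in place of its brightest, neither Rrm2 nor Dut was called. Tk1, thymidine kinase, had a mean of 0.25 ± 0.05 (limma adjusted p = 0.138). Like Rrm2, it passed the filter only through CDD, with the control well above background on 1 array. The array files place the Tk1 probe on chr3 in rn4, while the Tk1 promoter in GRCr8 is on chr10. Whether that probe reads Tk1 RNA was not checked. For Rrm1, the large reductase subunit, the mean was 0.24 ± 0.07 (limma adjusted p = 0.154), with 0.03 at the lowest of its 3 probes. Tyms, thymidylate synthase, had a mean of 0.16 ± 0.08 (limma adjusted p = 0.468).

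Chromatin assembly and the copying of DNA methylation were tested through 4 genes. Chaf1b and Chaf1a, both subunits of chromatin assembly factor 1, rose. Chaf1b had CDD signals of 1016 on array 1 and 567 on array 2 and control signals of 199 and 438. CDD was more than 2-fold brighter in each dye (2.32 in Cy5 and 2.85 in Cy3), and the log2 ratio was 1.05 and 1.10 (1.07 ± 0.04, limma adjusted p = 2.76e-13). In the authors' deposited table the log2 ratio of Chaf1b was 1.34 on array 1 and 1.27 on array 2, with p = 2.12e-08 and 8.72e-08 from the error model within each array. Chaf1a had CDD signals of 412 and 265 and control signals of 130 and 296. Its log2 ratios were 0.51 and 0.50 (1.42-fold, limma adjusted p = 0.000172), and its other kept probe had a mean of 0.13. Dnmt1, which copies methylation to the new strand, had log2 ratios of 0.00 and 0.19 (0.10 ± 0.14, limma adjusted p = 0.785), and both its kept probes were near that mean. Hells, a chromatin remodeller needed for DNA methylation, had log2 ratios of -0.34 and -0.03 (-0.18 ± 0.22, limma adjusted p = 0.391).

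Repair, fork protection and checkpoint genes were tested through 5 of 8 genes, of which 3 rose, with a median log2 ratio of 0.32 (0.36 on both arrays). Timeless, which travels with the fork and stabilises it, had CDD signals of 682 and 444 and control signals of 227 and 497. The log2 ratio was 0.43 on array 1 and 0.59 on array 2 (0.51 ± 0.11, 1.43-fold, limma adjusted p = 0.000161). Its binding partner Tipin had CDD signals of 334 and 204, control signals of 172 and 337, and log2 ratios of 0.00 and -0.01 (limma adjusted p = 0.998). Exo1, the exonuclease of mismatch repair and end resection, had CDD signals of 215 and 147 and control signals of 70.5 and 144. Both arrays gave close log2 ratios, 0.51 and 0.46 (0.48 ± 0.04, 1.40-fold, limma adjusted p = 0.000340). Chek1, the kinase that halts the cycle when forks stall, had log2 ratios of 0.29 and 0.36 (0.32 ± 0.05, 1.25-fold, limma adjusted p = 0.0310). Blm, the helicase that dissolves crossovers, had log2 ratios of opposite sign, 0.36 and -0.11 (0.12 ± 0.33, limma adjusted p = 0.682).

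The 11 genes with no kept probe were Brca1, Brca2, Cdt1, Fancd2, Gins3, Mcm4, Mcm5, Orc1, Pola2, Pole2 and Uhrf1. Of their 13 probes, 6 were well above background in no channel, 5 were so only for CDD in Cy5 on array 1, and 2 only in Cy5 on both arrays. Net signals ranged from 38.8 to 96.1, and mean log2 ratios from -0.05 to 0.20, positive for 11 of the 13. A level this close to background gives no direction. In the authors' deposited table the log ratio of these probes was positive for 13 of 13 on array 1 and for 6 of 13 on array 2. Of the genes tested, 12 of the 15 with a control net signal of at least 400 in Cy5 rose, where 6.05% of all genes that bright were called higher, and 9 of the 21 below that signal rose, where the share of all genes was 2.74%.

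Further genes of the same processes gave fewer calls. Of 34 other replication genes tested, 6 rose (17.6%, beside 4.37% of all genes) and none fell, with a median log2 ratio of 0.13. The largest were E2f1, an activating E2F factor (0.69 ± 0.01, limma adjusted p = 3.55e-07), E2f8, a repressor of the same family (0.52 ± 0.04), the GINS subunit Gins4 (0.52 ± 0.05) and the Mcm relative Mcm8 (0.50 ± 0.04). Among 24 other recombination, crosslink and damage checkpoint genes, 6 rose (25%) and none fell, with a median of 0.16. Rad18, a ubiquitin ligase acting on Pcna, had a mean of 0.60 ± 0.03, Palb2, a partner in recombination, 0.48 ± 0.06, and Bard1, a ubiquitin ligase subunit, 0.42 ± 0.41. Of 13 other nucleotide supply genes 1 rose (7.69%), Dctpp1, a pyrophosphatase of dCTP and its analogues (0.59 ± 0.04), and the median was 0.13. With 1 call, that list lies near the share of all genes.

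Most genes of the other repair pathways did not pass the test. Of 33 excision, mismatch and end-joining repair genes, 1 rose (Parp1, which senses strand breaks, 0.31 ± 0.17, limma adjusted p = 0.0420) and none fell, a share of 3.03% beside 4.37% of all genes. Their median log2 ratio was 0.04 (0.05 on array 1 and 0.06 on array 2). Mitosis genes stood at the other end, with 18 of 22 higher, none lower and a median of 0.57 (0.49 and 0.74). Ect2, which directs cytokinesis, had a mean of 1.36 ± 0.16, Mki67, the proliferation marker, 1.14 ± 0.11, the spindle checkpoint kinase Bub1 1.12 ± 0.27, and securin, Pttg1, 0.96 ± 0.01. Of 23 cyclin and Cdk genes, 6 rose and 1 fell, with a median of 0.09. Cdk1, the mitotic kinase, had a mean of 1.34 ± 0.14, cyclin E1 (Ccne1), which drives entry into S phase, 0.85 ± 0.10, and Ccnb1 and Ccna2, its later counterparts, 0.79 ± 0.03 and 0.75 ± 0.02. Cdkn1c, a Cdk inhibitor, fell by 0.45 ± 0.05 on the log2 scale. These differences between lists were not tested.

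**Figure D5:**
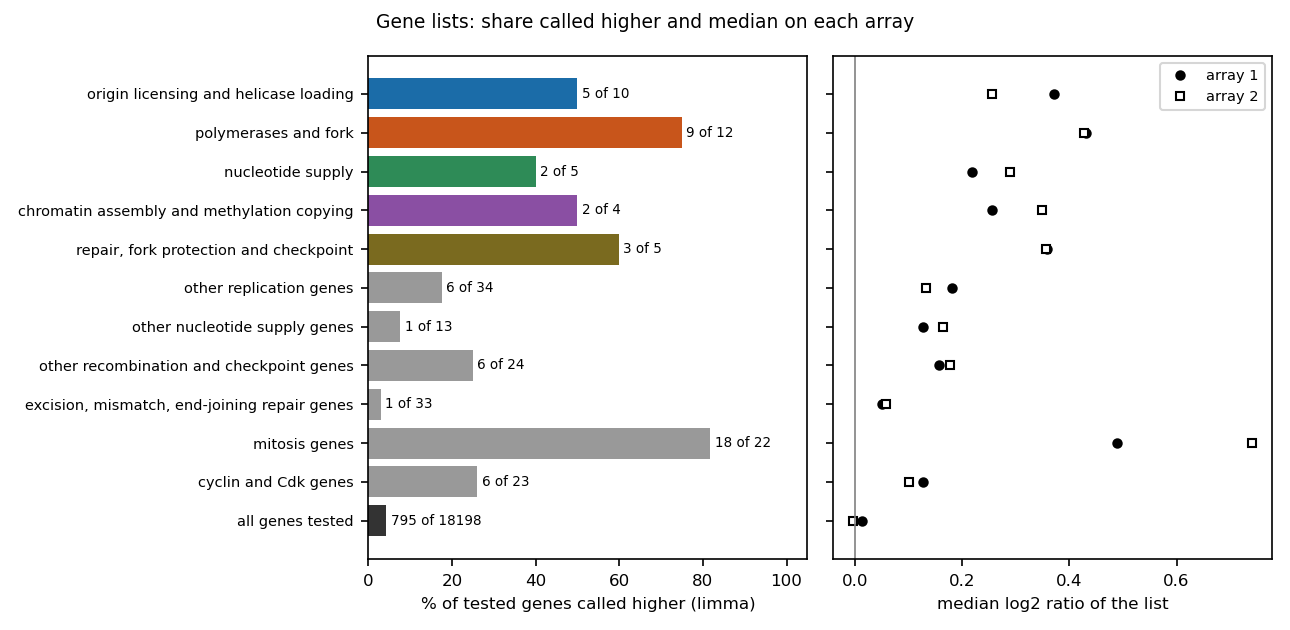
Left, percent of tested genes called higher by limma (x axis, bars from 0) in each list (y axis), with the counts beside the bars, and right, the median log2 ratio of CDD over control of the list on array 1 (filled circles) and array 2 (open squares). The share runs from 1 of 33 in excision, mismatch and end-joining repair to 18 of 22 in mitosis, and the 5 coloured groups of replication and repair roles lie between 2 of 5 and 9 of 12.

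In bulk RNA, a change in the number of cells of a type and a change in RNA per cell cannot be told apart. Markers of the cell types of liver were measured beside these genes. All 12 hepatocyte markers were well above background on both arrays in both diets, with 2 higher (Tat and Apoa1), 4 lower (Apob, F2, Foxa2 and Alb) and a median log2 ratio of -0.20. Their summed net signal was 318755 in the control and 320141 in CDD in Cy3, and 1169970 and 945838 in Cy5. Such sums, here and below, are not normalized and set the arrays against each other. Over all genes the median ratio of CDD to control was 1.22 in Cy3 and 0.939 in Cy5, so an equal sum in Cy3 lies below that median. Of 14 Kupffer cell and macrophage markers 2 were higher (Marco, 0.91 ± 0.13, and Lyz2, 0.69 ± 0.24) and 1 was lower (Cd14), with a median log2 ratio of -0.03. Their sum was 33027 in the control and 35710 in CDD in Cy3, and 79166 and 71252 in Cy5. Of 15 T, NK and B cell markers with a probe, 6 were well above background in no channel, among them Cd2, Cd3e, Cd4, Cd79b and Ms4a1, 1 of the 9 tested was lower (Gzma) and none was higher. The sum of those lymphoid markers was 1605 in the control and 1856 in CDD in Cy3, and 2922 and 2642 in Cy5.

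Neutrophil markers (3 of 6 tested, with Camp, Csf3r and Elane above background nowhere) gave 1 higher gene, S100a8, and sums of 383 and 548 in Cy3 and 556 and 462 in Cy5. Endothelial markers gave 1 lower gene of 9, Kdr, with a median of -0.08, and sums of 19616 in the control and 16534 in CDD in Cy3, and 46242 and 36232 in Cy5. Stellate cell and myofibroblast markers gave 3 higher genes of 9 (Vim, Tagln and Dcn), with a median of 0.01, and sums of 4767 and 6032 in Cy3 and 11427 and 10883 in Cy5. Cholangiocyte and oval cell markers gave 1 higher gene of 6, Spp1 (1.52 ± 0.15), with a median of 0.01, and sums of 1013 and 1701 in Cy3 and 1751 and 2942 in Cy5. Erythroid markers gave 1 lower gene of 7, Hbb-b1, with a median of -0.14, and sums of 17108 and 16332 in Cy3 and 49134 and 31650 in Cy5. The part of these cell types in the values of the replication and repair genes was not tested.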

How the data were processed

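Liver RNA on 2 dye-swapped Agilent arrays was used. Per the file headers, the authors extracted images with Feature Extraction, version 9.5.3.1 there and 9.5 per the submitters' processing notes. The deposited files hold spot and background intensity per dye, a log10 ratio of Cy5 over Cy3 after background subtraction, detrending and lowess, and its p-value from an error model within 1 array. The deposited series table equalled that log10 ratio in 45018 of 45018 rows on each array within 1%, with a median of 0 in each column and direction Cy5 over Cy3.

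With limma 3.58.1 in R 4.3.3, mean signal and median background were corrected by normexp (offset 50, which draws ratios of dim spots towards 0) followed by within-array loess with no weight for 1639 control spots. Outlier spots (174 and 151) were then left out, spots of a probe were averaged, and ratios were turned to CDD over control. Of 41012 probes, 22383 were kept, those with at least a 0.5 share of spots well above background, for CDD or for the control, on array 1 and array 2 alike, and the brightest kept probe stood for each gene. The mean of both arrays was tested against 0 (lmFit, eBayes, two-sided, Benjamini-Hochberg over 18198 genes, 1 residual and 63.5 prior degrees of freedom), so the spread is largely pooled over genes. In a run on simulated data, each unchanged gene had a mean of 0 by design, so that run cannot measure false calls.

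Signals had medians of 119 (Cy3) and 135 (Cy5) on array 1 and 136 and 155 on array 2 over backgrounds of 47 and 46, no spot was saturated, and 10 spots of a probe varied by a median SD of 0.0612 and 0.0518 over 171 probes. Ratios correlated across genes between the arrays (Pearson r = 0.55, Spearman rho = 0.30; genes are no replicates). Having 2 arrays limits the precision. Genes named are all 48, up to 4 genes in each direction past an adjusted p of 0.05 from each other pathway list, and those past it from each cell type list. Some genes meeting this rule are not reported here. The genes and lists were chosen with earlier results of these data known. Alternatives were another offset, the deposited ratio with and without an intensity trend, median centring, other filters, the mean of probes, an intensity trend and each array alone. Genes carry the names that the array files give.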

Additional observations from a re-analysis of the deposited data

How the results depend on the processing

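The count of 21 higher genes was 18 with a normexp offset of 16 (Dut, Prim1 and Rfc5 lost), 16 of 47 with no filter on dim probes (Chek1, Dut, Mcm2, Prim1 and Rfc5 lost), 20 of 31 with probes well above background in both diets on both arrays, 18 with the mean of kept probes (Dut, Mcm2 and Rrm2 lost), 21 with an intensity trend, and 22 with the deposited log ratio and an intensity trend, which added Tk1. With the deposited log ratio alone and with median centring, limma called 0 higher and 0 lower, both over all genes and among these genes, and 0 in each of the 5 groups of roles. At an unadjusted p under 0.05, 24 of the 36 were higher with the deposited log ratio (1039 over all genes) and 0 with median centring (18 over all genes). The prior degrees of freedom were then 2.43 and 21.4 in place of 63.5, and the cause of the lost calls was not tested further. The single lower gene, Mcm10, was called in every setting but those 2. All 21 genes kept a positive mean in each setting that tested them, but with median centring 8 of the 21 were negative on array 2 (Cdc45, Dut, Lig1, Pcna, Prim1, Rfc3, Rfc4 and Rpa2), where the median of all genes was -0.41 (0.65 on array 1).

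The median log2 ratio of 0.31 became 0.37 with an offset of 16, 0.59 with the deposited log ratio with or without a trend, 0.47 with median centring (where the median of all genes was 0.08) and 0.24 with no filter, and lay between 0.31 and 0.37 on either array alone. Nucleotide supply, with 2 higher genes, had 1 with an offset of 16, with no filter and with the stricter filter, and 0 with the mean of kept probes. Over all genes, the count of lower genes rose from 773 to 1215 with the deposited log ratio and a trend. Signs turned in genes that passed no test, namely Prim2 (0.024 with the deposited log ratio with or without a trend, 0.095 with median centring) and, with median centring, Hells (0.0092), Pola1 (0.026) and Tipin (0.10). No paired analysis was possible because the design has 1 group of 2 ratios. Dim signals limit 11 genes to no call.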
